A study of Mus musculus with 15 samples.

Results

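The synaptic vesicle and release machinery of cortical parvalbumin neurons was followed through 44 genes, chosen by name and found in each of the 15 count tables, which list 55341 genes for one set of libraries and 48321 for the other. They comprised 12 genes of the synaptotagmin and Doc2 families, 6 SNARE proteins and their recycling factors, and 3 complexins. The others were 9 genes grouped as vesicle proteins, 4 genes of the Rab3 group, and 10 active zone and priming factors. The vesicle protein group includes Synj1, a factor of vesicle recycling. The rule for choosing them is by name and uses no measured value, though they were chosen with earlier results of these data known. In each of the main comparisons, 43 of the 44 had enough counts to be tested: Syt9 was left out of the hormone comparison and Cplx3 out of the allele comparison.

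At a presynaptic terminal, vesicles filled with transmitter are tethered by Rab3 and scaffold proteins at the active zone, primed by Munc13 and RIM proteins, and fused with the membrane by a SNARE complex that is clamped by complexin and released by a calcium-bound synaptotagmin. Parvalbumin neurons are fast-spiking inhibitory cells whose terminals release GABA with very short delay. They are known for using the fast sensor Syt2, complexin Cplx1 and the SNARE protein Vamp1 where many excitatory terminals rely on Syt1, Cplx2 and Vamp2.

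The nuclei came from the cerebral cortex of individual adult mice that carry Pv-Cre and a Cre-dependent fluorescent nuclear reporter (PvCre ROSA-tomato-lox), so the sampled population is whatever had expressed parvalbumin-driven Cre. Ctrl mice (n = 4) were untreated and Thra+/+. Mut mice (n = 4) were littermates with 1 floxed ThraAMI allele (ThraAMI/+), which gives the dominant negative thyroid hormone receptor TRalpha1L400R in the cells where Cre is active; all 4 groups carry the Cre driver and the reporter. PTU mice (n = 3) were Thra+/+ and received propylthiouracil, which blocks thyroid hormone synthesis, in food pellets for 2 weeks. PTU_TH mice (n = 4) had the same genotype and diet and an intraperitoneal injection of thyroid hormones 24 h before dissection. PTU_TH against PTU asks what hormone does within a day in deficient animals, and Mut against Ctrl what a blocked receptor does in these cells without drug or injection.

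Total counts per library were 23786090 to 25377904 in Ctrl, 22333742 to 32571175 in Mut, 14470513 to 15449322 in PTU and 12957838 to 19141683 in PTU_TH. Levels are given as CPM, a gene's counts scaled to its library's total. Hr, a thyroid hormone target, averaged 3.92 CPM in PTU and 45.9 in PTU_TH, and 14.1 CPM in Ctrl and 1.76 in Mut, in the direction of the labels. Klf9, Cacnb3 and Sema7a, also chosen to check the labels, were higher in every PTU_TH than in every PTU library. Cacnb3 and Sema7a were lower in every Mut than in every Ctrl library. Klf9 was not: Mut replicate 2 read 40.34 CPM, above Ctrl at 34.2 to 40.27, while Mut replicates 1, 3 and 4 read 17.5 to 22.5. Of 14 parvalbumin neuron genes, 13 exceeded 1 CPM in each group, though their levels were not even across groups. Pvalb itself read 110 to 136 CPM in Ctrl and 63.8 to 95.8 in Mut. It read 91.5 to 109 CPM in PTU and 120 to 145 in PTU_TH. Neither pair of ranges overlapped. Tac1 was higher in Mut, at 87.3 to 120 CPM in Ctrl and 184 to 358 in Mut. Summed over the 14 genes, Ctrl read 8870 to 11600 CPM and Mut 10500 to 12200. The summed level of 15 excitatory neuron markers was 377 to 434 CPM in Ctrl, 378 to 450 in Mut, 434 to 503 in PTU and 417 to 496 in PTU_TH. Within that sum Rbp4 read 14.3 to 19.3 CPM in Ctrl and 40.3 to 79.6 in Mut, while Camk2a read 162 to 201 and 110 to 170. Neurod1 read 0 throughout, but so did the parvalbumin neuron gene Cox6a2. A 0 therefore does not show that a cell type was absent. Markers of other interneurons, 12 genes with 8 over 1 CPM in each group, summed to 181 to 203 CPM in Ctrl and 223 to 352 in Mut, without overlap, and to 146 to 226 in PTU and 104 to 221 in PTU_TH. Counts from Y-linked genes were present in Ctrl replicate 2, Mut replicates 1 to 3, PTU replicates 6 and 7 and PTU_TH replicates 3 and 4. In the PTU and PTU_TH set these 4 libraries also stood apart from the other 3 in the share of counts in genes longer than 100 kb, and in the other set Ctrl replicate 1 and Mut replicate 2 lay farthest from their groups.

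Promoter sequences are shown for Syt2, Stx1a and Rab3b, which were among the members with the smallest p-values and have an entry in the RefSeq promoter table (GRCm38.p6, 250 bases before to 50 after a start site). Syt2 lies at chr1:134646677-134762593 on the plus strand in GRCm38, Stx1a at chr5:135023482-135051100 (plus) and Rab3b at chr4:108879063-108943324 (plus). The windows are chr1:134646362-134646661 for the upstream start of Syt2, chr5:135023232-135023531 for Stx1a and chr4:108878820-108879119 for Rab3b, all on the plus strand, and capitals mark the hexamer bound by thyroid hormone receptors, AGGTCA, on either strand.
Syt2: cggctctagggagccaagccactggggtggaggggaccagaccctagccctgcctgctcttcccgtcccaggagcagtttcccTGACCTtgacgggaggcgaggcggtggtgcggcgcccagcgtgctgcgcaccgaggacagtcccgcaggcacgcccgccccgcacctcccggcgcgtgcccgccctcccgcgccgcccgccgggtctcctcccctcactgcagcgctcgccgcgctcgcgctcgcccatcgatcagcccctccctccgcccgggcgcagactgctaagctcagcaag
Stx1a: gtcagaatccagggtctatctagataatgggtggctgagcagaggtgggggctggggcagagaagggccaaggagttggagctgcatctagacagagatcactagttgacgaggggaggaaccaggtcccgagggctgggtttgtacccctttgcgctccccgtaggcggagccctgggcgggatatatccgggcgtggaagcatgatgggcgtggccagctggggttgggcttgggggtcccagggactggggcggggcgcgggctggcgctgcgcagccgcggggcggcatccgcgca
Rab3b: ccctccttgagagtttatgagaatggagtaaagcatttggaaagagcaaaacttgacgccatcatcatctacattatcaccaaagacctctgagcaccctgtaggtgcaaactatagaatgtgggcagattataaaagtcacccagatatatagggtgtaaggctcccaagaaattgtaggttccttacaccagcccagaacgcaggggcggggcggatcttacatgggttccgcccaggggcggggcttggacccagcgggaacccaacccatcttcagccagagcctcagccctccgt
The Syt2 window holds the hexamer on the reverse strand, 167 bases before the start, and the other 2 windows hold none, nor does the window of the second Syt2 start. Of 46 windows belonging to the 33 members in the table, 6 (13%) hold the hexamer: those of Syt1, Syt2, Cplx3 and Erc2, with 1 each, and 2 of Syt6. The 2 Syt6 windows overlap and hold the same hexamer, so 1 site is counted in both. Over all 32851 windows of the table the share was 16.3%. The DR4 direct repeat of this hexamer, in either orientation, was in 0 member windows and in 5 of all windows (0.0152%). A match is only a run of letters, and its absence concerns this window alone.

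The 44 members held 1.05% to 1.22% of all counts in every library, and 26 of them averaged at least 100 CPM in Ctrl. Genes were compared per kb of exon, taking the exons of all annotated isoforms together. That length need not be the length of the transcripts counted, so ranks and ratios between genes are approximate. Cplx1 was first in Ctrl at 278 ± 38.7 CPM per kb (SD, n = 4). Next were the vesicle calcium sensor Syt1 at 222 ± 45.9 and the plasma membrane SNARE Snap25 at 152 ± 6.82. Cplx1 and Syt1 did not differ beyond their spread. Sv2a, a vesicle glycoprotein, stood at 133 ± 19.6 and Rims1, the active zone scaffold RIM1, at 115 ± 32.9, again within each other's spread. At the other end, Syt9, Cplx3, Syt6 and Doc2b averaged under 3 CPM in every group, and Unc13c and Cplx2 under 10 CPM. Exonic bases shared with another gene exceeded 5% in 8 members, up to 17.2% in Syt12, and the counts of those genes are less certain.

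**Figure D1:**
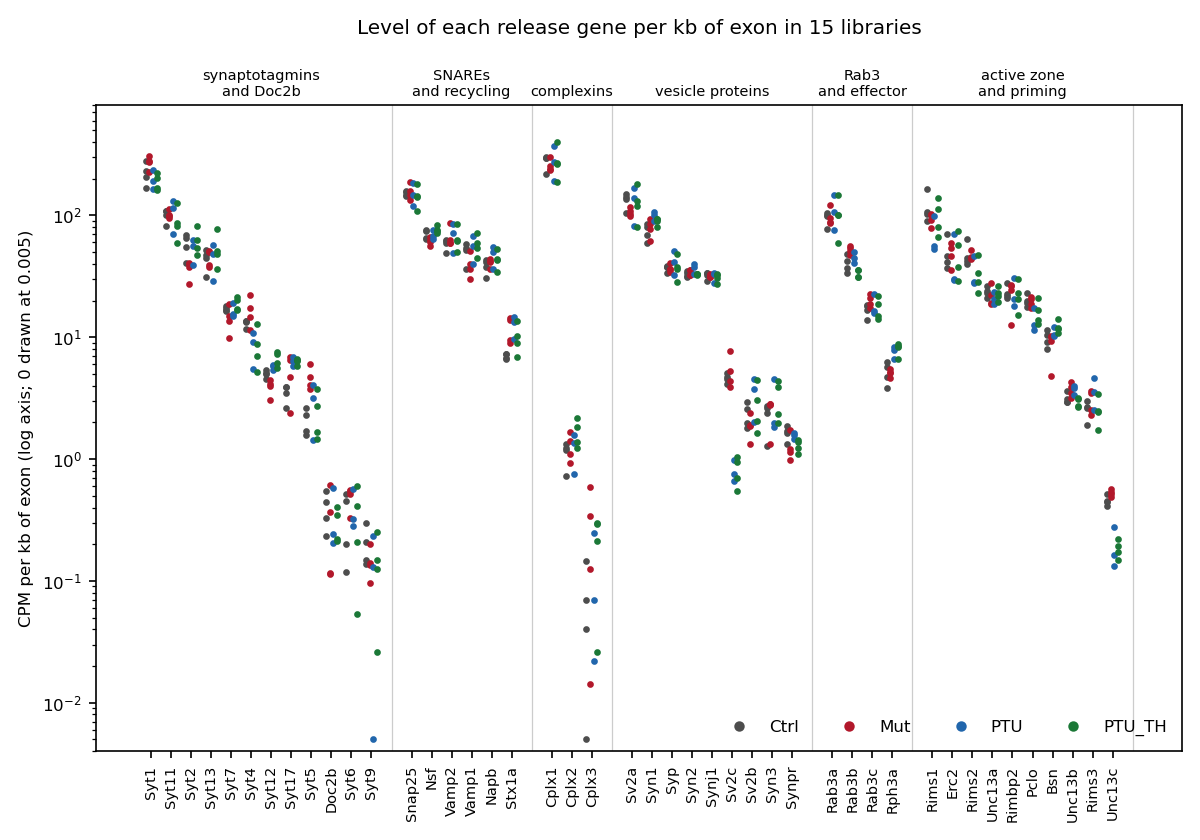
Level of each member per kb of exon in the 15 libraries, by role, on a log axis in CPM per kb; each point is 1 library, coloured by group, and a level of 0 is drawn at 0.005. Cplx1, Syt1 and Snap25 lead their roles in all groups, and the PTU and PTU_TH points of Sv2c and Unc13c lie below those of Ctrl and Mut.

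Within families, 1 gene usually dominated. The per-kb level of Cplx1 was 267 ± 103 times that of Cplx2 in Ctrl, that of Sv2a 60.3 ± 19.9 times that of Sv2b, and that of the priming factor Unc13a (Munc13-1) 7.62 ± 1.31 times that of Unc13b (SDs over 4 libraries). The synapsins, which bundle vesicles in reserve, ran from Syn1 at 73.2 ± 11.4 CPM per kb to Syn2 at 33.1 ± 1.70 and Syn3 at 2.25 ± 0.655. Other pairs were closer: Syt1 exceeded Syt2 per kb by 4.11 ± 1.82 times, the vesicle GTPase Rab3a exceeded Rab3b by 2.39 ± 0.331 times, and the ratio of the vesicle SNAREs Vamp1 and Vamp2 was 0.858 ± 0.0930. The Vamp1 to Vamp2 ratio depended on exon length, 10167 bases for Vamp1 and 3809 for Vamp2. In plain counts it was 2.29 ± 0.248 in Ctrl. Syt1 thus gave more nuclear counts than Syt2, the isoform typical of these neurons, in every library.

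No change with hormone injection passed the test in the 43 tested members: 0 were called at an adjusted p under 0.05 by edgeR's quasi-likelihood test, against 0.281% of the 15288 genes tested, and 0 were called by DESeq2 or limma-voom. The median log2 fold change of the members, PTU_TH over PTU, was 0.0024, beside -0.0029 over all genes. Single members ranged from -0.47 (Rims3) to 0.95 (Cplx3, which read at most 0.886 CPM), and 41 of 43 lay within 0.5 of no change. An unadjusted p under 0.05 was reached by 2 members (4.65%, against 7.37% of all genes), and group ranges did not overlap for 3 (6.98%, against 7.25%). The fit left out no library. In bulk nuclei, fewer cells with a transcript and less RNA per cell cannot be told apart, here or in any comparison below.

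**Figure D2:**
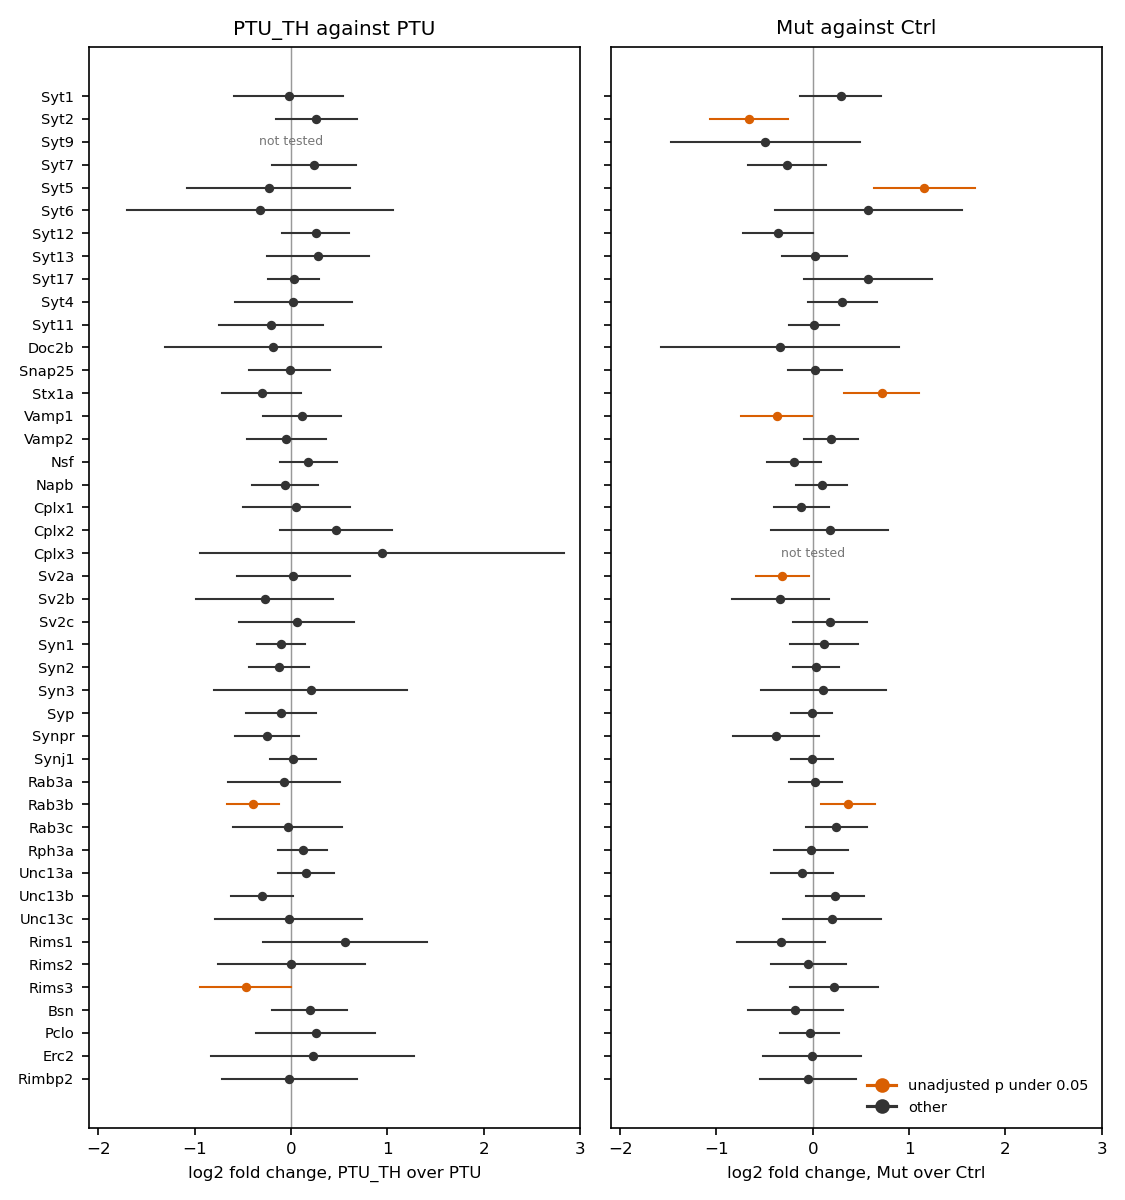
Log2 fold change of every member in the hormone comparison (left, PTU_TH over PTU) and the allele comparison (right, Mut over Ctrl), with 95% intervals from edgeR as bars and unadjusted p under 0.05 in orange. Most intervals include 0, with 2 orange members on the left and 6 on the right, and no member passed the adjusted threshold in either.

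The smallest p in the hormone comparison belonged to Rab3b, a Rab3 isoform that tethers vesicles and has been tied to plasticity at inhibitory terminals. Its levels were 159, 143 and 176 CPM in the PTU libraries and 126, 109, 110 and 125 CPM in the PTU_TH libraries. Every PTU_TH library lay below every PTU library. The log2 fold change was -0.40 ± 0.12 (SE; edgeR adjusted p = 0.384), and the mean ratio taken only among libraries with Y-linked counts (-0.44, 2 against 2) or only among those without (-0.43, 2 against 1) was of the same size. With sex as a covariate the adjusted p of Rab3b was 0.0300 and with the share of long genes as a covariate it was 0.00238, beside 335 and 1011 genes called under those fits (2.19% and 6.61% of genes tested). Of Rab3b's exonic bases, 8.99% are shared with another gene.

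For its relatives the groups overlapped. Rab3a, the main Rab3 of brain synapses, ranged over 168 to 326 CPM in PTU and 132 to 326 in PTU_TH, with a log2 fold change of -0.07 ± 0.26 (SE). Rab3c stood at -0.04 ± 0.25 and the Rab3 effector Rph3a (rabphilin) at 0.12 ± 0.11. The ratio of Rab3b to Rab3a counts averaged 0.565 ± 0.187 in PTU_TH and 0.694 ± 0.220 in PTU (SD), with an exact two-sided permutation p of 0.343 (adjusted p = 0.429).

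Among priming factors, Unc13b (Munc13-2) was a further member with separate groups: 86.3, 90.1 and 75.8 CPM in PTU, and 61.0, 71.5, 71.1 and 61.5 CPM in PTU_TH. All PTU_TH values lay below all PTU values, by a narrow gap. Its log2 fold change was -0.30 ± 0.14 (edgeR adjusted p = 0.721; 0.0234 for Unc13b with the share of long genes as a covariate), and -0.32 and -0.38 with and without Y-linked counts. Rims3, a short RIM isoform, read 20.3, 28.5 and 36.7 CPM in PTU and 19.3, 13.9, 19.7 and 27.3 in PTU_TH, with overlapping groups, a log2 fold change of -0.47 ± 0.21 and an edgeR adjusted p of 0.677.

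The long scaffold genes spread widely within groups. Rims1 read 734, 387 and 410 CPM in PTU and 825, 1026, 590 and 490 in PTU_TH, and its log2 fold change of 0.56 ± 0.38 had an edgeR adjusted p of 0.909; with the share of long genes as a covariate it was among the members called. Rims2, its closest relative, read 480, 289 and 293 CPM in PTU and 350, 492, 294 and 239 in PTU_TH (0.0024 ± 0.34). Counted against each other within each library, the pair separated: the ratio of Rims1 to Rims2 counts was 1.53, 1.34 and 1.40 in PTU and 2.35, 2.08, 2.00 and 2.05 in PTU_TH. The groups did not overlap (means 1.42 ± 0.0971 and 2.12 ± 0.158, SD; exact two-sided permutation p = 0.0286, the smallest this design allows; adjusted p = 0.0714 over 10 ratio tests). Ratios were chosen after values were seen, and leaving out any library raises the smallest possible p above the threshold.

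Synaptotagmins and complexins were not called with hormone, except Syt2 and Syt13 when the share of long genes was a covariate. Syt2 read 297, 431 and 484 CPM in PTU and 410, 364, 484 and 627 in PTU_TH (0.26 ± 0.19, edgeR adjusted p = 0.921), with overlapping groups; with that covariate Syt2 gave 0.32 (edgeR adjusted p = 0.00796). Syt1 gave -0.02 ± 0.25 and Syt7, a slow calcium sensor of asynchronous release, 0.24 ± 0.19. Cplx1, which clamps and then speeds fusion, read 416, 594 and 812 CPM in PTU and 576, 412, 592 and 880 in PTU_TH, a wide and overlapping spread around a log2 fold change of 0.06 ± 0.25. Cplx2 was low, at 3.69, 6.70 and 7.77 CPM in PTU and 6.80, 6.11, 9.03 and 10.6 in PTU_TH (0.47 ± 0.26, edgeR adjusted p = 0.813). Within libraries, the ratio of Cplx1 to Cplx2 counts averaged 102 ± 12.2 in PTU and 75.1 ± 9.99 in PTU_TH, without overlap (exact two-sided permutation p = 0.0286, adjusted p = 0.0714).

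SNARE and vesicle genes showed no called change either. Snap25 read 816, 992 and 1241 CPM in PTU and 974, 744, 964 and 1236 in PTU_TH, Vamp1 407, 573 and 686 against 547, 456, 603 and 722, and Vamp2 186, 274 and 327 against 234, 189, 237 and 324. Each pair of groups overlapped, with log2 fold changes of -0.02 ± 0.18, 0.11 ± 0.18 and -0.05 ± 0.18. Sv2a, the main SV2 glycoprotein, read 377, 641 and 775 CPM in PTU and 553, 372, 605 and 836 in PTU_TH (0.02 ± 0.26). The 95% interval of Snap25 ran from -0.43 to 0.40 and that of Sv2a from -0.56 to 0.61, so changes within those bounds are not excluded. Over the 9 genes grouped as vesicle proteins, 4 had a positive and 5 a negative fold change, between -0.27 and 0.21. Synpr (synaptoporin) was the third member whose groups did not overlap, at 13.8 to 15.4 CPM in PTU and 10.3 to 13.6 in PTU_TH (-0.25 ± 0.14, edgeR adjusted p = 0.852).

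With the mutant receptor, too, 0 of 43 tested members were called by edgeR, against 0.348% of the 16949 genes tested. Members had a median log2 fold change, Mut over Ctrl, of 0.0159, beside 0.0142 over all genes. An unadjusted p under 0.05 was reached by 6 members (14.0%, against 8.74% of all genes): Syt5, Stx1a and Rab3b on the higher side, Syt2, Sv2a and Vamp1 on the lower. Group ranges did not overlap for 4 (9.30%, against 5.89%), namely Syt5, Stx1a, Syt2 and Syt12. Under DESeq2, 3 members were called (Stx1a, Syt2 and Syt5; 1.55% of all genes), and under limma-voom with quality weights 3 (Syt2, Syt5 and Vamp1; 1.95%).

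Syt5, a synaptotagmin of dense-core and other secretory vesicles, came nearest to a call. It read 4.05, 6.26, 3.75 and 5.52 CPM in Ctrl and 9.65, 14.4, 11.1 and 8.86 CPM in Mut. All Mut libraries exceeded all Ctrl libraries, at a low level in both. The log2 fold change was 1.16 ± 0.24 (SE), a 2.23-fold ratio (edgeR adjusted p = 0.0731). Among libraries with Y-linked counts the log2 ratio of means was 0.91 and among the others 1.00, each with 1 library on 1 side. Adjusted p was 0.000142 under DESeq2, 0.0206 under limma-voom, 0.0318 with the share of long genes as a covariate (1 member and 1.24% of genes called) and 0.274 with sex as a covariate.

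Syt2 went the other way in value. Ctrl libraries read 311, 421, 496 and 528 CPM and Mut libraries 287, 209, 310 and 302 CPM. All Mut values lay below all Ctrl values, but Ctrl replicate 1, at 311, touched the highest Mut library, at 310. The log2 fold change was -0.66 ± 0.18 (edgeR adjusted p = 0.209). Without Ctrl replicate 1 it was -0.78 (edgeR adjusted p = 0.127) and without Mut replicate 2 it was -0.53 (edgeR adjusted p = 0.208). Syt1 read 2316, 1407, 1945 and 1726 CPM in Ctrl and 2581, 1900, 2342 and 2303 in Mut, with overlap (0.29 ± 0.19, edgeR adjusted p = 0.782).

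**Figure D3:**
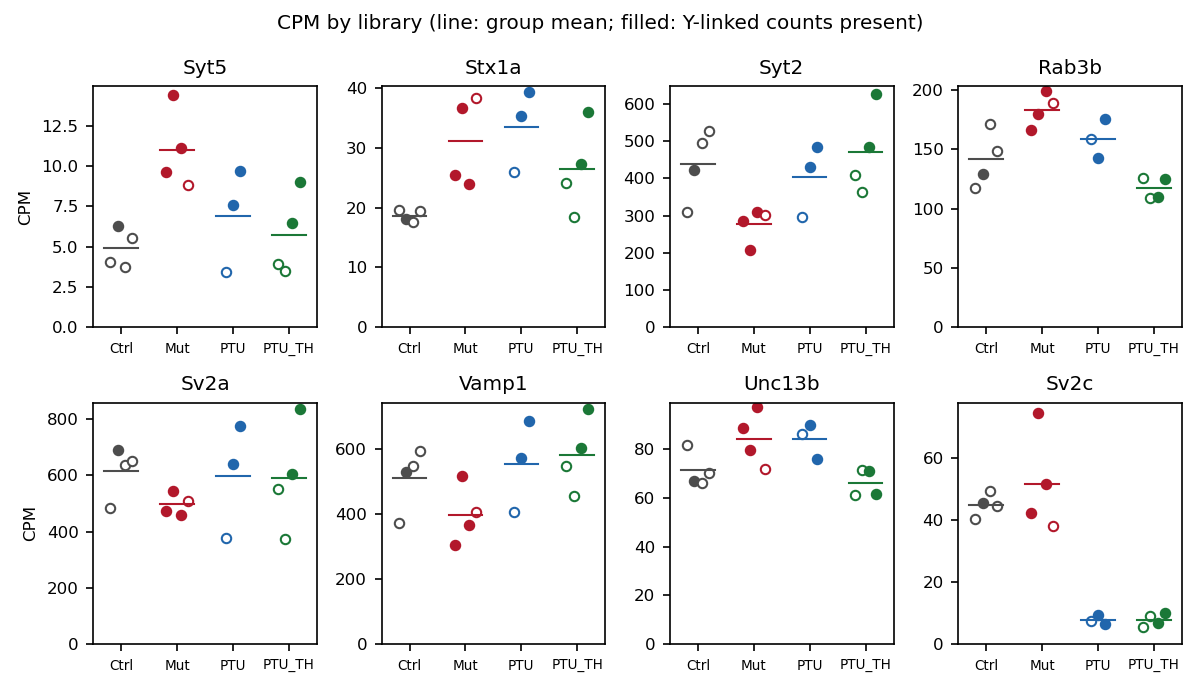
CPM of 8 members in each library by group, with group means as lines and filled points for libraries with Y-linked counts; each panel has its own axis from 0. Syt5 and Stx1a sit higher and Syt2 lower in all 4 Mut libraries than in the Ctrl libraries, Rab3b and Unc13b are lower in all 4 PTU_TH than in the 3 PTU libraries, and Sv2c separates the PTU and PTU_TH libraries from the rest.

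Syt2 and Syt1 were then set against each other within each library. The ratio of Syt2 to Syt1 counts was 0.134, 0.299, 0.255 and 0.306 in Ctrl and 0.111, 0.110, 0.132 and 0.131 in Mut. The lowest Ctrl library, replicate 1, was just above the highest Mut library, and the other 3 were well above. Means were 0.249 ± 0.0797 and 0.121 ± 0.0123 (SD, n = 4 each; exact two-sided permutation p = 0.0286, the smallest 4 against 4 allows; adjusted p = 0.0714 over 10 ratios). Without any 1 of the 4 Mut libraries the exact permutation p was 0.0571, and without any 1 of the Ctrl libraries it was 0.0286. In the hormone set the same ratio was 0.151, 0.316 and 0.304 in PTU and 0.243, 0.198, 0.359 and 0.447 in PTU_TH, with overlap (exact permutation p = 0.486). There the ratio was 0.151 to 0.243 where 34.1% to 40.7% of counts lay in genes over 100 kb. It was 0.304 to 0.447 where 24.9% to 28.4% did. By replicate, that share was 39.7%, 29.5%, 33.0% and 31.6% in Ctrl and 36.7%, 27.4%, 34.6% and 34.6% in Mut. Syt1 spans 513 kb and Syt2 116 kb. The part of that share in the ratio was not tested. Syt2 and Syt1 were paired after values were seen, so these p-values are descriptive.

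Vesicle SNAREs were compared in the same way. Vamp1, the isoform typical of fast inhibitory terminals, read 372, 528, 549 and 593 CPM in Ctrl and 305, 516, 366 and 405 in Mut (-0.37 ± 0.17, edgeR adjusted p = 0.557). Vamp2 read 187, 240, 227 and 233 CPM in Ctrl and 225, 332, 239 and 228 in Mut (0.19 ± 0.13, edgeR adjusted p = 0.790). Each gene overlapped between the groups, but their ratio did not: Vamp1 to Vamp2 was 1.99, 2.202, 2.42 and 2.55 in Ctrl and 1.36, 1.55, 1.53 and 1.78 in Mut. Means were 2.29 ± 0.248 and 1.56 ± 0.173 (SD, n = 4 each; exact two-sided permutation p = 0.0286, adjusted p = 0.0714), and each set of 7 libraries gave the same unadjusted p. In the hormone set, the ratio averaged 2.13 ± 0.0535 in PTU and 2.38 ± 0.129 in PTU_TH (exact permutation p = 0.0571). Vamp1 and Vamp2 were paired after values were seen, so the p-values of their ratio are descriptive and give no independent support. The summed level of the 12 markers of other interneurons was higher in all Mut than in all Ctrl libraries (above). All 8 of its genes over 1 CPM averaged higher in Mut, by unlike amounts. Npy and Cck averaged 52.0 and 29.8 CPM in Ctrl and 86.5 and 54.7 in Mut. Sst, Vip, Lamp5, Cnr1 and Adarb2 averaged 6.17, 4.24, 11.9, 35.3 and 8.18 CPM in Ctrl and 10.7, 6.04, 14.6, 40.8 and 10.4 in Mut. The ranges of each of these genes overlapped between the groups. Reln stood at 39.6 and 40.1 CPM, nearly level. Calb2 and Ndnf, both under 1 CPM, averaged lower in Mut. The part of that sum, or of the lower Pvalb in Mut, in these ratios and in the Mut values of single members was not tested.

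**Figure D4:**
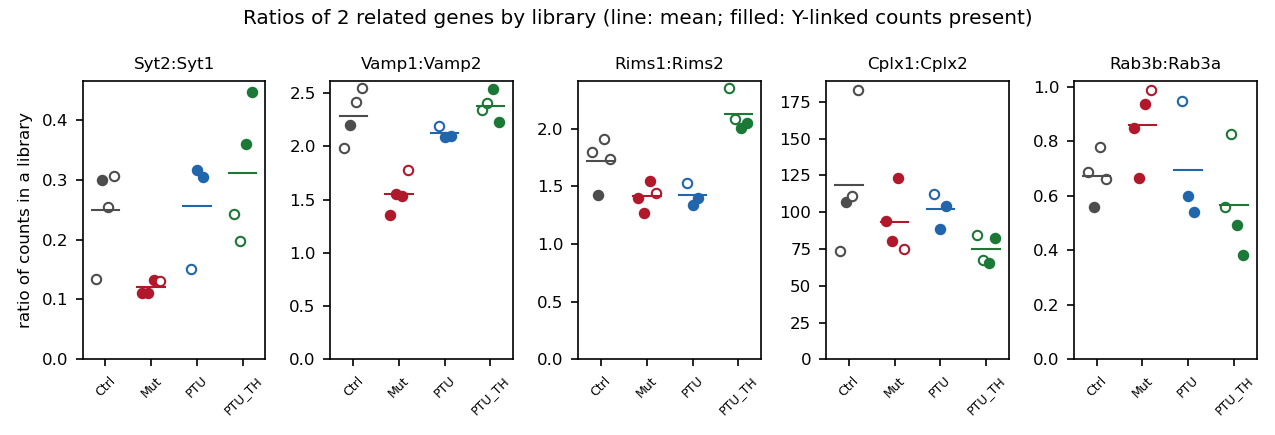
Ratio of counts of related genes within each library, by group, with means as lines and filled points for libraries with Y-linked counts; each panel has its own axis from 0. Syt2 to Syt1 and Vamp1 to Vamp2 are lower in all 4 Mut libraries than in all 4 Ctrl libraries, and Rims1 to Rims2 is higher in all 4 PTU_TH than in all 3 PTU libraries.

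Stx1a, a plasma membrane SNARE, was the most even of the members that separated in Ctrl. It read 19.5, 18.1, 17.5 and 19.5 CPM there, and 25.4, 36.6, 23.9 and 38.3 CPM in Mut. Every Mut library was above every Ctrl library, with a log2 fold change of 0.72 ± 0.18 (SE; 1.64-fold; edgeR adjusted p = 0.142). Among libraries with and without Y-linked counts the log2 ratio of means was 0.66 and 1.02. Snap25, its partner, read 994, 987, 1060 and 1079 CPM in Ctrl and 1006, 1268, 1067 and 902 in Mut (0.03 ± 0.13).

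Rab3b read 118, 129, 171 and 148 CPM in Ctrl and 166, 180, 199 and 189 in Mut, with an overlap of 1 library on each side. Its log2 fold change was 0.36 ± 0.13 (edgeR adjusted p = 0.382). Rab3a was at 172, 232, 220 and 224 CPM in Ctrl and 196, 271, 212 and 191 in Mut (0.02 ± 0.13). Sv2a read 484, 691, 636 and 652 CPM in Ctrl and 474, 546, 460 and 508 in Mut, where only Ctrl replicate 1 fell within the Mut range (-0.32 ± 0.13, edgeR adjusted p = 0.465). Without that library its value was -0.40 (edgeR adjusted p = 0.175).

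Of the members not yet described, Syt6, Syt17 and Syt9 had the widest log2 values, 0.58 ± 0.44, 0.57 ± 0.30 and -0.49 ± 0.45, each with overlapping groups and an edgeR adjusted p of at least 0.664. Syt12, a synaptotagmin that does not bind calcium, read 25.1 to 30.0 CPM in Ctrl and 16.9 to 24.5 in Mut without overlap (-0.36 ± 0.17, edgeR adjusted p = 0.577), with 17.2% of its exonic bases shared with another gene. Syt7 read 135, 122, 126 and 131 CPM in Ctrl and 113, 73.6, 102 and 141 in Mut, with overlap (-0.27 ± 0.18). Cplx1 read 481, 649, 644 and 656 CPM in Ctrl and 512, 665, 560 and 521 in Mut, and Cplx2 read 6.504, 6.10, 5.82 and 3.59 in Ctrl and 5.47, 8.28, 4.54 and 6.96 in Mut. Neither complexin separated the genotypes (-0.12 ± 0.13 and 0.17 ± 0.28). The 10 active zone and priming factors lay between -0.33 (Rims1) and 0.23 (Unc13b), 3 positive and 7 negative, none with an unadjusted p under 0.05.

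The hormone and allele comparisons share no library, so their values can be set side by side. Of 42 members tested in both, 31 (73.8%) had opposite signs in PTU_TH over PTU and Mut over Ctrl, as had 62.6% of 14048 genes. Spearman's rho across the members was -0.44 and across all genes -0.35, given as a description, since genes of a library share its depth and composition. Rab3b is an example, at -0.40 with hormone and 0.36 with the mutant receptor. Stx1a gave -0.31 and 0.72, Syt2 0.26 and -0.66, and Syt5 -0.23 and 1.16. None of these 4 was called in either comparison.

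Comparisons of the PTU and PTU_TH libraries with Ctrl cross the 2 sets of tables, so the treatment and the set cannot be told apart, and they share the 4 Ctrl libraries. In PTU against Ctrl 5 of 43 members were called (11.6%, against 17% of genes): Stx1a and Syt17 higher, Sv2c, Unc13c and Syt4 lower. In PTU_TH against Ctrl 5 of 43 were called (11.6%, against 17.8%): Syt17 and Rph3a higher, Sv2c, Unc13c and Syt4 lower. Both shares lie below that of all genes. Single libraries moved these counts and those of all genes. PTU against Ctrl called 10 members and 4283 genes without PTU replicate 5 and 3 members and 2063 genes without replicate 6, beside 2804 genes with all libraries. PTU_TH against Ctrl called 3 members and 2512 genes without PTU_TH replicate 1 and 8 members and 3270 genes without replicate 2, beside 2814 genes with all libraries.

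Sv2c, the SV2 isoform of basal ganglia and some interneurons, gave the widest gap. It read 40.3, 45.3, 49.4 and 44.3 CPM in Ctrl, 42.2, 74.3, 51.6 and 38.1 in Mut, 7.25, 9.47 and 6.39 in PTU and 5.30, 9.09, 6.71 and 10.04 in PTU_TH. The set of tables split these values without overlap, and neither comparison within a set moved them beyond their spread (0.18 ± 0.18 and 0.06 ± 0.26). The log2 fold change to Ctrl was -2.58 ± 0.18 for PTU (edgeR adjusted p = 1.67e-06) and -2.53 ± 0.19 for PTU_TH (edgeR adjusted p = 1.03e-06). Its relatives Sv2a and Sv2b were not called.

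Unc13c, a Munc13 isoform best known from cerebellum, followed the same split at a lower level: 3.63 to 4.499 CPM in Ctrl, 4.31 to 5.00 in Mut, 1.42, 1.18 and 2.44 in PTU, and 1.504, 1.31, 1.93 and 1.70 in PTU_TH. The values to Ctrl were -1.29 ± 0.32 (edgeR adjusted p = 0.0164; 0.0786 without PTU replicate 6) and -1.34 ± 0.25 (edgeR adjusted p = 0.00192). Syt4, which is not a fast trigger of fusion, read 45.6, 53.0, 52.5 and 51.4 CPM in Ctrl and 56.5, 85.7, 44.5 and 67.4 in Mut, against 21.2, 35.6 and 42.4 in PTU and 27.4, 20.1, 34.3 and 49.7 in PTU_TH. PTU stayed below Ctrl and PTU_TH overlapped it, at -0.67 ± 0.18 and -0.66 ± 0.19 (edgeR adjusted p = 0.0281 and 0.0290). Leaving out any of Ctrl replicates 2 to 4 ended both calls, with edgeR adjusted p of 0.0545 to 0.0697, as did leaving out PTU replicate 6 (0.0703) or PTU_TH replicates 1 and 3 (0.0934 and 0.0670). In the joint fit of all groups the Syt4 call in PTU against Ctrl also ended (edgeR adjusted p = 0.0675).

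Syt17, a relative of the synaptotagmins, read 20.1, 18.04, 13.6 and 20.1 CPM in Ctrl, 35.9, 12.4, 34.1 and 24.4 in Mut, 33.5, 30.0 and 35.6 in PTU, and 33.6, 30.0, 33.3 and 34.5 in PTU_TH. PTU and PTU_TH were tight and above Ctrl, and Mut was spread over both levels. The values to Ctrl were 0.84 ± 0.18 (edgeR adjusted p = 0.00658) and 0.85 ± 0.15 (edgeR adjusted p = 0.00133). Stx1a read 25.9, 35.2 and 39.2 CPM in PTU and 24.1, 18.5, 27.3 and 36.0 in PTU_TH, which gave 0.80 ± 0.16 (edgeR adjusted p = 0.00434) and 0.47 ± 0.17 (edgeR adjusted p = 0.0729) against Ctrl. Rph3a read 22.0, 29.3, 17.6 and 26.4 CPM in Ctrl, 31.0, 36.3 and 38.5 in PTU and 40.6, 31.0, 38.2 and 39.2 in PTU_TH, all above Ctrl (0.53 ± 0.18, edgeR adjusted p = 0.0666, and 0.63 ± 0.16, edgeR adjusted p = 0.0141; 0.0502 without PTU_TH replicate 1).

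Beyond the 44, 81 further release genes were listed (other synaptotagmins, syntaxins and Munc18 proteins, endocytic factors, GABA loading and the proton pump), of which 69 were tested in each main comparison. With hormone 0 were called by edgeR, and 4 (5.8%, against 7.37% of all genes) had an unadjusted p under 0.05. The 2 smallest were Lin7b, a scaffold subunit, at 83.5 to 104 CPM in PTU and 100 to 132 in PTU_TH (0.32 ± 0.10, edgeR adjusted p = 0.411), and Stx2, a syntaxin, at 26.3 to 28.4 and 17.1 to 22.2 CPM (-0.38 ± 0.13, edgeR adjusted p = 0.488). In Mut, 1 of 69 was called (1.45%, against 0.348%), another synaptotagmin family member, Syt16. It read 15.8, 10.4, 14.0 and 15.1 CPM in Ctrl and 29.2, 30.9, 24.2 and 39.0 in Mut, a 2.21-fold increase without overlap (1.14 ± 0.20, edgeR adjusted p = 0.0386). With Syt16 included, 11 of the 69 (15.9%, against 8.74% of all genes) had an unadjusted p under 0.05. Slc32a1, the vesicular GABA transporter, stood at 52.8 ± 6.20 CPM in Ctrl and 41.7 ± 4.79 in Mut (edgeR adjusted p = 0.382). Lin7b and Slc32a1 share 24.4% and 24.9% of their exonic bases with another gene, so their counts are less certain.

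Libraries of the same group also differed by gene length. The 17 members longer than 100 kb, among them Rims1, Rims2, Erc2, Pclo and Syt1, summed to 4342 to 4755 CPM in the 4 PTU and PTU_TH libraries with Y-linked counts and to 5622 to 6407 in the 3 without. The 27 shorter members went the opposite way, at 5849 to 7490 and 4555 to 5672 CPM. No library of 1 kind overlapped the other, while the sum over all members stayed within 10540 to 12180 CPM. Taken singly, 24 of 43 members (55.8%) did not overlap between these libraries, against 40.6% of all genes: among 16 tested long members 8 were lower and 2 higher with Y-linked counts, and among 27 short ones 2 were lower and 12 higher. Over all genes, 11.4% were lower and 29.2% higher. Erc2, an active zone scaffold and the longest member at 856 kb, read 279 to 365 CPM in libraries with Y-linked counts and 553 to 728 in those without.

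In the Ctrl and Mut set the same split separated only 2 of 43 members (4.65%, against 3.64%). Ctrl replicate 1, with 39.7% of its counts in genes over 100 kb, had the highest sum for long members (7125 CPM) and the lowest for short ones (4864 CPM) of the 8. Mut replicate 2, with 27.4%, was at 5092 and 6163 CPM. Y-linked counts and the share of long genes cannot be told apart in the PTU and PTU_TH set, where 2 of 3 PTU and 2 of 4 PTU_TH libraries had Y-linked counts. With the share of long genes as a covariate, 5 members were called in the hormone comparison (Rab3b, Rims1, Syt13, Syt2 and Unc13b; 11.6%, against 6.61% of genes).

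**Figure D5:**
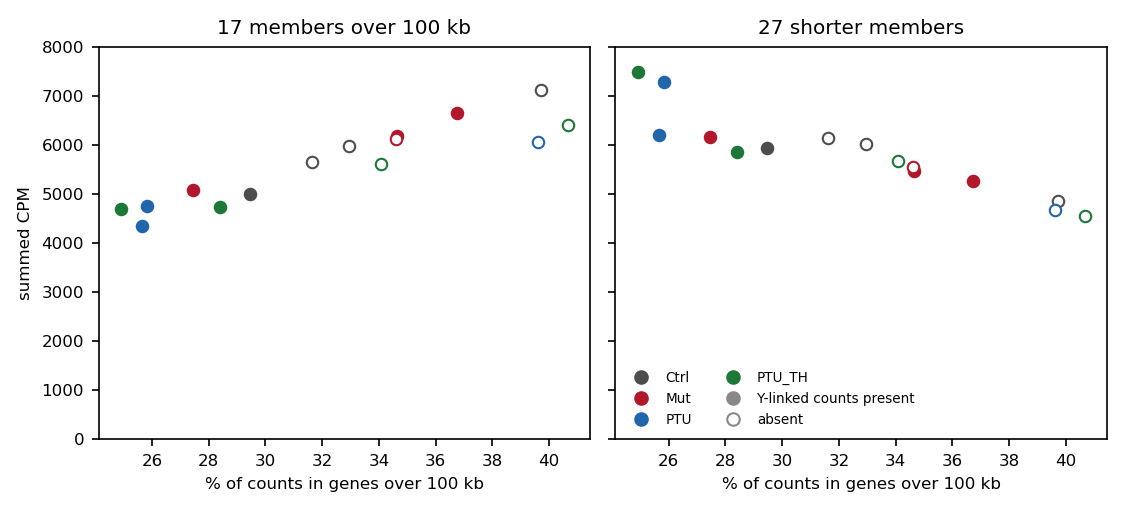
Summed CPM of the 17 members over 100 kb (left) and of the 27 shorter members (right) against the share of each library's counts in genes over 100 kb; each point is 1 library, filled where Y-linked counts were present. The sum of long members rises and that of short members declines with that share, and the filled PTU and PTU_TH points lie together below 29%.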

How the data were processed

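Nuclear RNA of sorted nuclei from individual mouse cortices was turned into cDNA with SMART-Seq v4 and Nextera XT, per the labels' protocols. The authors deposited whole-number counts per gene, 1 table per library; the submitters' processing notes name Bowtie2 2.5.3, HTSeq, mm10 and GRCm38. Which annotation and HTSeq mode were used, and whether strand was read, the sources used here do not say, and reads of overlapping genes cannot be separated. Counts were used as deposited. Genes passing filterByExpr (minimum count 10) were fitted with edgeR 4.0.16 (TMM, robust quasi-likelihood, R 4.3.3), separately for each comparison, and p-values were adjusted by Benjamini-Hochberg over all genes tested. The threshold was an adjusted p of 0.05. The scripts were tested on simulated data. Ratios were chosen after values were seen and compared by exact two-sided permutation over libraries, so their p-values are descriptive.

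The members and gene lists were chosen with earlier results of these data known. Values per library are given for members called in any comparison, the 4 with the smallest p in each main comparison, and the isoforms typical of parvalbumin neurons with their counterparts. Of the other release genes, those called are named, or the 2 with the smallest p. Other genes, such as Syt12, Synpr, Rims1, Rims2, Erc2 and Slc32a1, were named after their values were seen. Titles number separate mice. Alternatives were DESeq2 1.42.0, limma-voom 3.58.1 with quality weights, other scalings and filters, covariates for sex and for the share of long genes, a joint fit and leaving out each library. Positions and exon lengths come from GENCODE M21, promoters from RefSeq (GRCm38.p6). Figures were drawn with matplotlib 3.10.9.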

Additional observations from a re-analysis of the deposited data

Results flagged for a closer look

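Each named member was examined in the groups of 4 libraries for a library far from the other 3, and 2 of 60 such tests met the limit; chance gives about 1 in 20, or 3. Cplx1 read 480.8 CPM in Ctrl replicate 1 and 644.4 to 655.8 CPM in the other 3 Ctrl libraries. Vamp2 read 332.2 CPM in Mut replicate 2 and 225.0 to 238.6 CPM in the other 3 Mut libraries. These are the libraries with the highest and the lowest share of counts in genes over 100 kb in the Ctrl and Mut set; the part of that share in the 2 values was not tested.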

How the results depend on the processing

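The hormone comparison called 43 genes and 0 members. DESeq2 called 203 genes, limma-voom 171, the sex covariate 335 with 1 member, and the long gene share covariate 1011 with 5 members; leaving out 1 library gave 5 to 29 genes. The allele comparison called 59 genes and 0 members. DESeq2 called 403 genes and 3 members, limma-voom 331 and 3, the long gene share covariate 210 and 1, the floor of 1 CPM 90 genes, the sex covariate 31 and the joint fit 196; leaving out 1 library gave 11 to 103 genes. PTU against Ctrl called 12 members and 5653 genes (34.3% of genes tested) with limma-voom. With the long gene share covariate it called 10 members and 3813 genes (23.1%). With 1 library left out it called 3 to 10 members and 2061 to 4283 genes. PTU_TH against Ctrl called 9 members and 3867 genes (24.5%) with limma-voom, and 11 members and 4463 genes (28.2%) with the long gene share covariate. With 1 library left out it called 3 to 8 members and 2380 to 3270 genes. The cause was not tested.

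Log2 values that changed sign were as follows. In Mut against Ctrl, limma-voom gave Rab3a -0.085, Rph3a 0.083, Snap25 -0.041 and Sv2c -0.0062, and the sex covariate Rab3a -0.059 and Snap25 -0.010. Leaving out 1 library moved Rab3a over -0.065 to 0.070, Rph3a over -0.14 to 0.079, Snap25 over -0.039 to 0.085 and Sv2c over -0.0092 to 0.29. In PTU_TH against PTU, limma-voom gave Cplx1 -0.055, Sv2a -0.11, Sv2c -0.15, Syt1 0.10, Syt4 -0.16 and Unc13c 0.11. The sex covariate gave Rab3a 0.017, Snap25 0.024, Unc13c 0.0053 and Vamp2 0.022, and the long gene share covariate Snap25 0.019 and Vamp2 0.013. Leaving out 1 library moved Cplx1 over -0.12 to 0.28, Rab3a over -0.25 to 0.15, Snap25 over -0.10 to 0.11, Sv2a over -0.18 to 0.22, Sv2c over -0.090 to 0.20, Syt1 over -0.17 to 0.21 and Syt17 over -0.059 to 0.10. It moved Syt4 over -0.20 to 0.21, Syt5 over -0.52 to 0.055, Unc13c over -0.24 to 0.29, Vamp1 over -0.021 to 0.25, Vamp2 over -0.20 to 0.10 and the Syt2 to Syt1 ratio over -0.06 to 0.48.

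With a replicate block in Mut against Ctrl, 82 genes and 0 members were called, and Syt5 stood at 1.16 (edgeR adjusted p = 0.0834). Same-numbered libraries correlated at -0.021 to 0.202 in their deviations, and differently numbered ones at -0.156 to 0.132. For Ctrl replicates 1, 2 and 4 the same-numbered Mut library had the highest value, and for Ctrl replicate 3 it did not. The ranges overlap, so these values do not settle whether the numbers mark pairs, and the main fit did not pair them. With 3 or 4 mice a group, the 95% intervals of most members include 0 with room on both sides, and low genes such as Cplx3 and Syt9 are limited by their counts.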
